A study of Danio rerio with 17 samples.

Results

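The 54 collagen genes of the zebrafish array were followed in livers of 2 transgenic cancer-model lines that were overfed and given Oligo-Fucoidan, only overfed, or fed normally. A gene was taken as a collagen when its single annotated symbol read col, a type number, the letter a and a chain number, with any paralog suffix. These are 54 of the 20908 genes that the array names with 1 symbol, and they cover 23 collagen types. Collagens are trimeric proteins of the extracellular matrix whose chains wind into a triple helix. Fibrillar types such as I and V build the cross-banded fibrils that form scar tissue, type IV builds the network of basement membranes, and type VI builds beaded filaments between fibrils and cells. Among the remaining types are some that decorate fibrils, span the cell membrane or anchor basement membranes. In liver, stellate cells and fibroblasts are the best-known source of fibrillar collagen, and type I collagen is the usual marker of fibrosis.

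The samples were 17 arrays of adult liver, labelled female and 6 months of age. HBx,src fish express the X protein of hepatitis B virus (HBx) with mCherry and the oncogene src from the fabp10a promoter, which is active in hepatocytes, and HBx,src,p53 fish carry the same transgenes and are heterozygous for p53 (p53-/+). In each line DIO+OF fish were overfed, each fish getting 83 mg of Artemia cysts daily, and received Oligo-Fucoidan (OF), a low molecular weight fucoidan from brown seaweed, by oral gavage at 300 mg/kg for a month, DIO fish were overfed at 83 mg without OF, and NOR fish received 6.9 mg. HBx,src gave 3 DIO+OF, 3 DIO and 3 NOR arrays, and HBx,src,p53 gave 3 DIO+OF, 3 DIO and 2 NOR arrays. The labels call the DIO and NOR fish mock treated without saying what the mock was, so a change with OF cannot be told apart from one with gavage and anaesthesia unless the mock included them. They also do not say whether an array held 1 fish or a pool, so the p values measure the spread between these arrays. The labels put all HBx,src arrays in batch 1 and all HBx,src,p53 arrays in batch 2, so the batches cannot be told apart from the lines. Signals were therefore compared within a line, and between the lines only the changes found within each were compared.

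All values below are log2 signals of 1 probe set a gene, the one with the highest mean over the 17 arrays, and log2 fold changes are differences of group means with the standard error (SE) of the limma fit. A gene is called when its Benjamini-Hochberg adjusted p from limma over all 75212 probe sets is under 0.05. The hepatocyte markers had array medians of 11.15 to 12.85. Those of exocrine pancreas, which lies within and around the zebrafish liver, had medians of 4.37 to 7.13 in HBx,src and 6.56 to 10.93 in HBx,src,p53. The array of HBx,src,p53 DIO+OF replicate 3 stood apart: the yolk precursor vtg2 was at 2.76 there and at 13.75 to 14.04 on the other 16 arrays, and the estrogen receptor esr1 was at 5.89 there and at 9.76 to 10.82 elsewhere in the line. It held the highest value of its line for 24.5% of all genes and for 11 of the 54 collagens. It held the lowest for 14 collagens, and the share of all genes lowest there was not counted. Values without this array are given beside many of the collagen results below, but not for every gene that it moved. For example, col16a1 averaged 3.37 in HBx,src,p53 DIO+OF livers and 3.80 in DIO livers. Without this array the fitted difference of col16a1 between these groups was 0.05 ± 0.30 (SE, limma adjusted p 0.976).

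Of the 54 collagens, 42 (77.8%) lay above the dimmest 40% of probe sets, against 76.7% of all genes. The 12 dimmer ones were col2a1a, col4a5, col7a1l, col8a1b, col9a1a, col9a3, col10a1a, col17a1a, col17a1b, col18a1b, col22a1 and col28a1b, most of them known from cartilage, skin or other tissues, and their fold changes are between signals near the floor of the array. The median of the 54 collagens on an array ran from 2.08 to 2.55 over the HBx,src arrays and from 2.56 to 2.86 over the HBx,src,p53 arrays. A mean of 3 or more over the 17 arrays was reached by 17 of the 54 collagens and a mean of 4 or more by 6. The median of all probe set means was 2.37, and most collagens had a mean under 3. Several collagen genes neighbour each other in the RefSeq annotation of the zebrafish genome, col4a1 and col4a2, col4a3 and col4a4, col4a5 and col4a6, and col9a2 and col16a1.

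Few collagens passed the test in any comparison. In HBx,src no collagen was called for DIO+OF against DIO, for DIO against NOR or for DIO+OF against NOR, where 0.732%, 0% and 0.191% of all genes were called. Nor was any collagen called in HBx,src,p53 for DIO+OF against DIO or for DIO against NOR, where 2.35% and 3% of all genes were called. For DIO+OF against NOR in HBx,src,p53, 2 of the 54 collagens were called, both higher, which is 3.7% of them beside 6.3% of all genes. The 2 were col5a1 and col6a1.

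The median change of the collagens was small in each comparison, as was that of all genes. The median log2 fold change of the 54 collagens was -0.08 for DIO+OF against DIO in HBx,src and -0.10 in HBx,src,p53, beside -0.01 and 0.04 over all genes. For DIO against NOR it was 0.09 in HBx,src and 0.13 in HBx,src,p53, beside -0.02 and -0.01. For DIO+OF against NOR it was 0.01 and 0.04, beside -0.02 and 0.03. Without DIO+OF replicate 3 the HBx,src,p53 median of the collagens was -0.02 for DIO+OF against DIO and 0.12 for DIO+OF against NOR. Between 43 and 51 collagens lay within 0.5 of no change in each comparison. That is 79.6% to 94.4% of the family, where 64.8% to 83% of all genes lay within 0.5. With 17 of the 54 at a mean signal of 3 or more, these small changes cannot be read as absence of change. The typical 95% interval of a single collagen reached 0.54 to 0.60 on either side of its estimate, and the number of arrays limits the precision. Changes of 1.19 (col6a1) and 0.87 (col6a4a) for DIO+OF against DIO in HBx,src,p53 were not called.

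**Figure D1:**
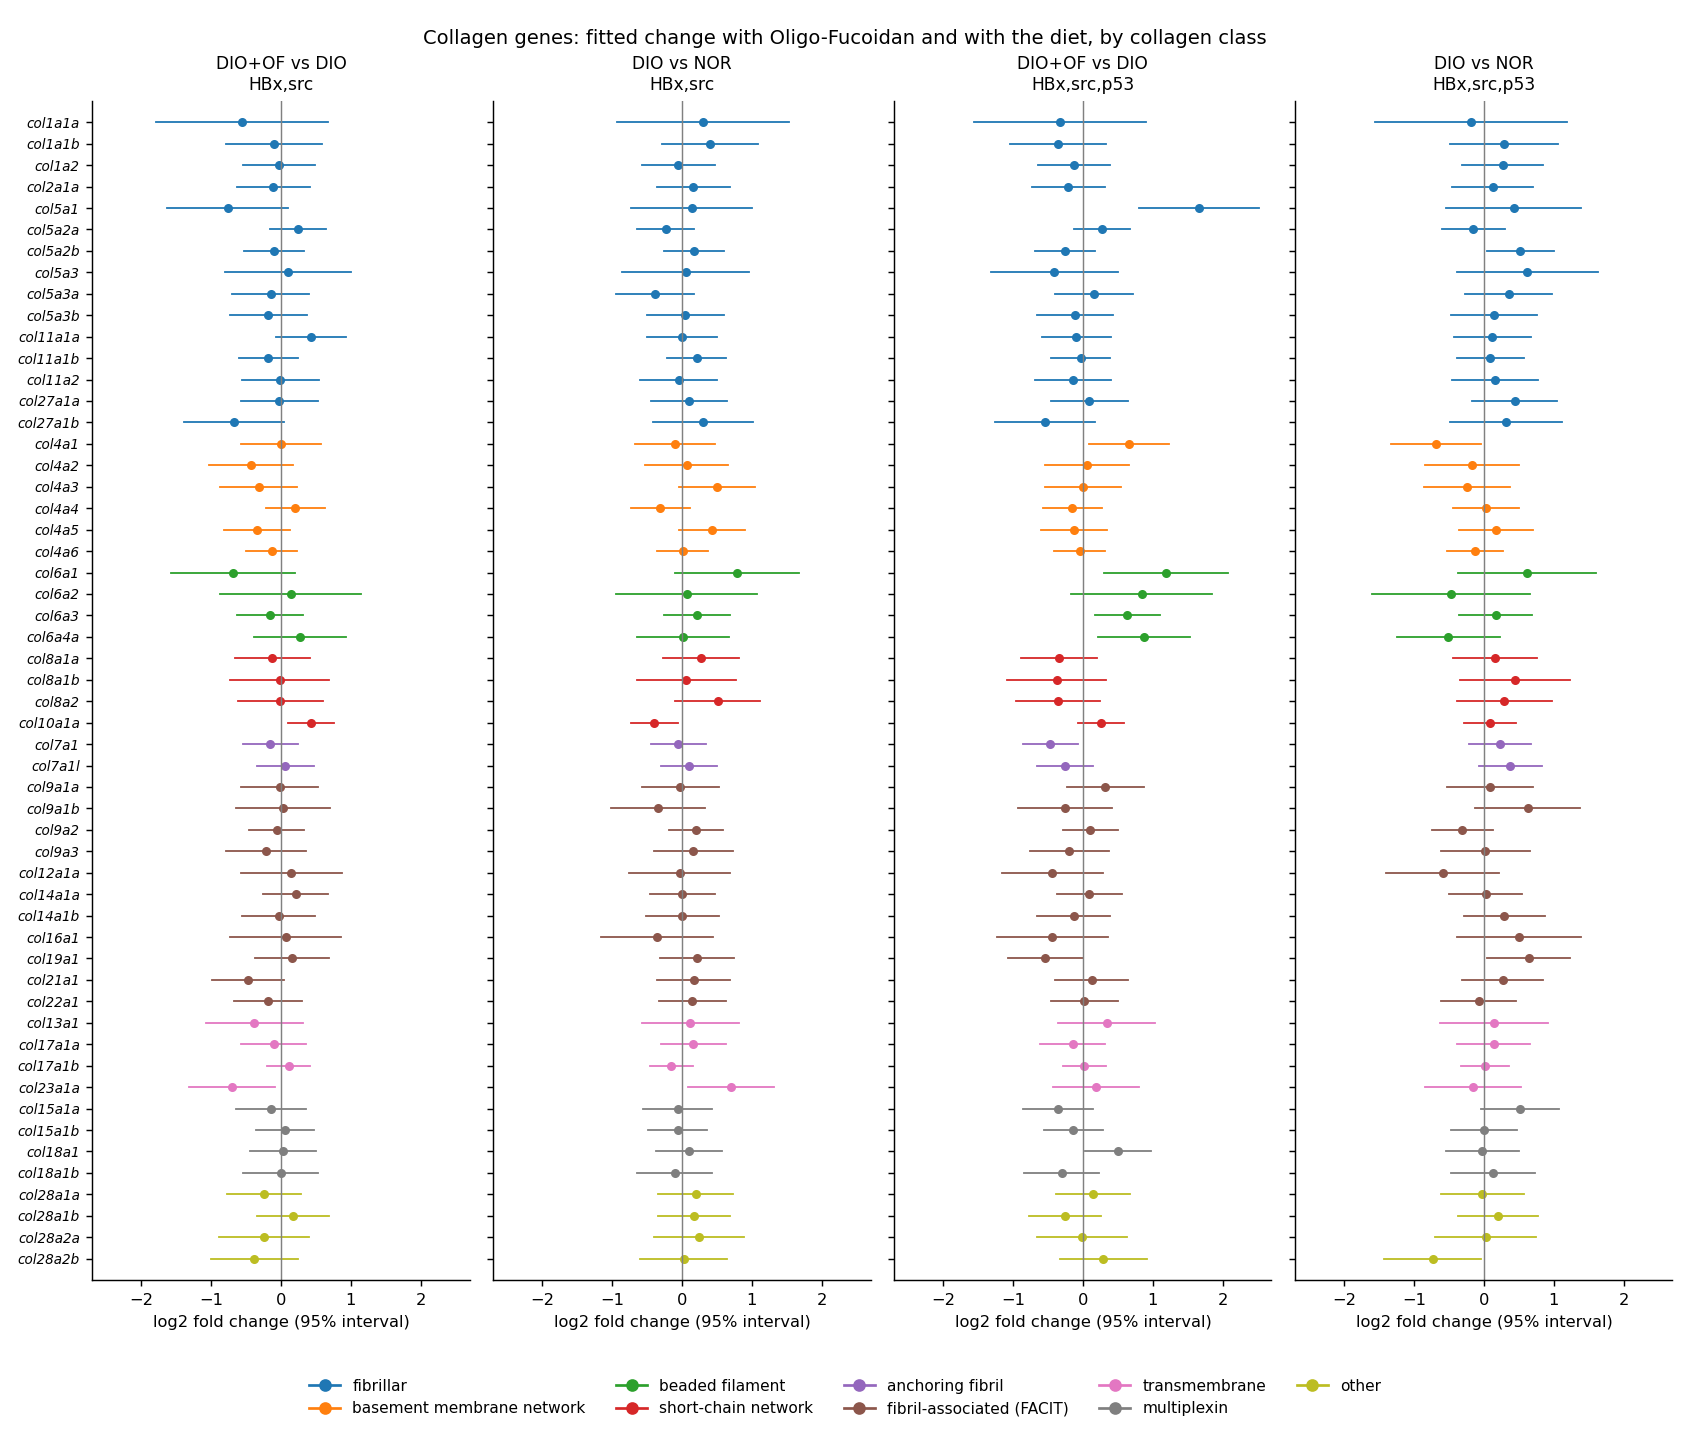
Fitted log2 fold change (x axis, point) of each of the 54 collagen genes (y axis, grouped and coloured by collagen class) for DIO+OF against DIO and for DIO against NOR in HBx,src (left pair of panels) and HBx,src,p53 (right pair), with the 95% interval as a line. Most intervals cross 0. For DIO+OF against DIO in HBx,src,p53, col5a1 at 1.66 and the 4 type VI chains at 0.64 to 1.19 stand to the right. So do col4a1 at 0.66, whose second probe set (not shown) gave -0.83, and col18a1 at 0.50.

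Type I collagen was not called in any comparison. The study used its gene col1a1 as a fibrosis marker, measured by qPCR beside connective tissue growth factor and heparanase. It also stained liver collagen with Sirius red. Its Oligo-Fucoidan comparisons of these were in irradiated fish, and the titles of the present arrays name no irradiation. The values here are therefore no direct counterpart of that result. In HBx,src, col1a1a, the alpha 1 chain, read 2.42, 3.72 and 3.89 in DIO+OF livers, 4.06, 3.79 and 3.86 in DIO livers and 3.16, 3.25 and 4.38 in NOR livers. Its values in HBx,src,p53 were 3.01, 3.74 and 5.31 in DIO+OF livers, 3.51, 4.93 and 4.62 in DIO livers and 4.12 and 4.95 in NOR livers. The groups overlapped in both lines, and the highest value of HBx,src,p53 came from DIO+OF replicate 3, the array with the low vtg2. DIO+OF against DIO gave -0.55 ± 0.57 in HBx,src and -0.33 ± 0.57 in HBx,src,p53 (SE; limma adjusted p 0.807 and 0.855), and DIO against NOR gave 0.30 ± 0.57 and -0.18 ± 0.64 (0.996 and 0.939). Without that array, DIO+OF against DIO in HBx,src,p53 was -0.98 ± 0.53 (0.528) in place of -0.33, and was still not called. The second, dimmer probe set of col1a1a gave -0.14 in HBx,src and -0.15 in HBx,src,p53 for DIO+OF against DIO on all arrays (limma adjusted p 0.898 and 0.835).

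The other alpha 1 paralog, col1a1b, read 4.01, 3.35 and 3.84 in HBx,src DIO+OF livers, 4.32, 3.29 and 3.89 in DIO livers and 3.86, 3.50 and 2.94 in NOR livers. Its HBx,src,p53 values were 4.99, 4.33 and 4.25 with DIO+OF, 4.71, 4.91 and 5.02 with DIO and 4.22 and 4.98 with NOR. Its groups overlapped, and its largest change was 0.40 ± 0.32 for DIO against NOR in HBx,src (SE, limma adjusted p 0.954). Its second, dimmer probe set gave 0.25 there (0.923). For DIO against NOR in HBx,src,p53 the 2 probe sets of col1a1b differed in sign, at 0.28 and -0.29 (0.786 and 0.51). The largest value of the alpha 2 chain col1a2 was 0.27 ± 0.27, for DIO against NOR in HBx,src,p53 (adjusted p 0.704). Its arrays ran from 2.33 to 2.77 in HBx,src and from 2.85 to 3.82 in HBx,src,p53.

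The collagen with the largest change with OF was col5a1, the alpha 1 chain of type V collagen, a minor fibrillar collagen that assembles inside type I fibrils and governs their diameter. The HBx,src,p53 arrays read 5.52, 6.06 and 7.49 in DIO+OF livers, 4.96, 4.32 and 4.80 in DIO livers and 4.18 and 4.37 in NOR livers. All 3 DIO+OF arrays lay above every DIO and NOR array. In HBx,src it read 3.84, 3.55 and 3.11 in DIO+OF livers, 4.25, 4.28 and 4.26 in DIO livers and 3.81, 3.90 and 4.67 in NOR livers. There the DIO+OF arrays all lay below the DIO arrays.

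Against NOR, col5a1 rose by 2.09 ± 0.45 in HBx,src,p53 DIO+OF livers, 4.25-fold (95% interval 1.12 to 3.05 on the log2 scale, limma adjusted p 0.0221). Against DIO it was 1.66 ± 0.40 higher (SE), 3.16-fold, which missed the threshold (adjusted p 0.0572). In HBx,src, DIO+OF against DIO was -0.76 ± 0.40 (0.512). The diet without OF gave 0.42 ± 0.45 in HBx,src,p53 (0.725) and 0.14 ± 0.40 in HBx,src (0.999). Both contrasts with DIO+OF in a line share the same 3 DIO+OF arrays, and the large value of replicate 3 enters both. Without that array the change against NOR was 1.52 ± 0.33 (adjusted p 0.0323) and the change against DIO 1.095 ± 0.30 (0.148). The call against NOR was lost without NOR replicate 1 (adjusted p 0.12) or NOR replicate 2 (0.111) and in a fit of the HBx,src,p53 arrays alone (0.0893).

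The array holds 4 probe sets for col5a1. In HBx,src,p53, DIO+OF against NOR gave 1.93, 0.43 and 0.59 for the 3 others (adjusted p 0.0928, 0.72 and 0.363), and DIO+OF against DIO gave 1.86, 0.47 and 0.49 (0.102, 0.57 and 0.418). All 4 therefore had the same sign and differed in size. The other type V chains showed no such change. The genes col5a2a, col5a2b, col5a3, col5a3a and col5a3b lay between -0.41 and 0.27 for DIO+OF against DIO in HBx,src,p53, and none was called.

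Type VI collagen forms beaded filaments that link cells and basement membranes to the surrounding fibrils, and its main trimer combines an alpha 1, an alpha 2 and an alpha 3 chain. The alpha 1 gene col6a1 read 6.75, 6.78 and 8.12 in HBx,src,p53 DIO+OF livers, 5.94, 5.86 and 6.26 in DIO livers and 6.01 and 4.80 in NOR livers. The DIO+OF arrays lay above all others of the line, with replicate 3 the highest. In HBx,src it read 6.17, 5.68 and 6.13 in DIO+OF livers, 7.09, 6.32 and 6.64 in DIO livers and 6.59, 5.50 and 5.60 in NOR livers. Its DIO+OF arrays there lay below the DIO arrays and among the NOR arrays.

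Against NOR, col6a1 rose by 1.81 ± 0.46 in HBx,src,p53 DIO+OF livers, 3.51-fold (SE, limma adjusted p 0.0453). Against DIO it was 1.19 ± 0.41 higher, 2.29-fold (adjusted p 0.181), and in HBx,src it was -0.69 ± 0.41 (0.588). The diet without OF gave 0.62 ± 0.46 in HBx,src,p53 (0.58) and 0.79 ± 0.41 in HBx,src (0.87). The call against NOR lay close to the threshold and was lost with 13 of the 17 arrays left out in turn: without NOR replicate 2 the change was 1.20 (adjusted p 0.407), without DIO+OF replicate 3 it was 1.36 ± 0.42 (0.119), and the others are given with the processing alternatives. For its 2 other probe sets DIO+OF against NOR gave 1.23 and 0.89 (0.292 and 0.65).

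The other type VI chains were also on the higher side in HBx,src,p53 DIO+OF livers, with no call. The alpha 3 gene col6a3 read 4.46, 3.81 and 4.30 in DIO+OF livers, 3.56, 3.70 and 3.40 in DIO livers and 3.07 and 3.69 in NOR livers, with all DIO+OF arrays above the rest. It was 0.64 ± 0.22 higher against DIO and 0.81 ± 0.24 higher against NOR (SE, limma adjusted p 0.178 and 0.093). Its other, dimmer probe sets gave 0.61 and 0.27 against DIO (0.256 and 0.696) and 0.76 and -0.18 against NOR (0.166 and 0.895). The gene col6a4a read 6.18, 6.11 and 6.88 in DIO+OF livers, 5.19, 6.08 and 5.29 in DIO livers and 6.14 and 5.92 in NOR livers. The DIO+OF arrays lay above the DIO arrays and overlapped the NOR arrays. It was 0.87 ± 0.31 higher against DIO (0.189), and 0.36 ± 0.34 against NOR (0.752), or 0.12 ± 0.35 without DIO+OF replicate 3 (0.948). Its second probe set gave 0.48 against DIO and -0.14 against NOR (0.709 and 0.967).

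The alpha 2 gene col6a2 read 3.85, 3.18 and 4.84 in DIO+OF livers, 2.83, 2.299 and 4.21 in DIO livers and 3.75 and 3.42 in NOR livers, and the groups overlapped. It gave 0.84 ± 0.47 against DIO (SE, limma adjusted p 0.44). The median of the 4 type VI genes was 0.86 for DIO+OF against DIO and 0.59 against NOR in HBx,src,p53, where all 4 were above 0, and -0.01 for DIO+OF against DIO in HBx,src, where 2 of the 4 were above 0. Over all genes the medians of these 3 comparisons were 0.04, 0.03 and -0.01. Replicate 3 held the highest value of the line for col6a1, col6a2 and col6a4a. Without it the 4 genes gave 0.74, 0.41, 0.58 and 0.63 against DIO, in the order col6a1, col6a2, col6a3 and col6a4a, with a median of 0.61. Against NOR they gave 1.36, -0.06, 0.75 and 0.12 in the same order without it, with a median of 0.44 and 3 of 4 above 0.

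**Figure D2:**
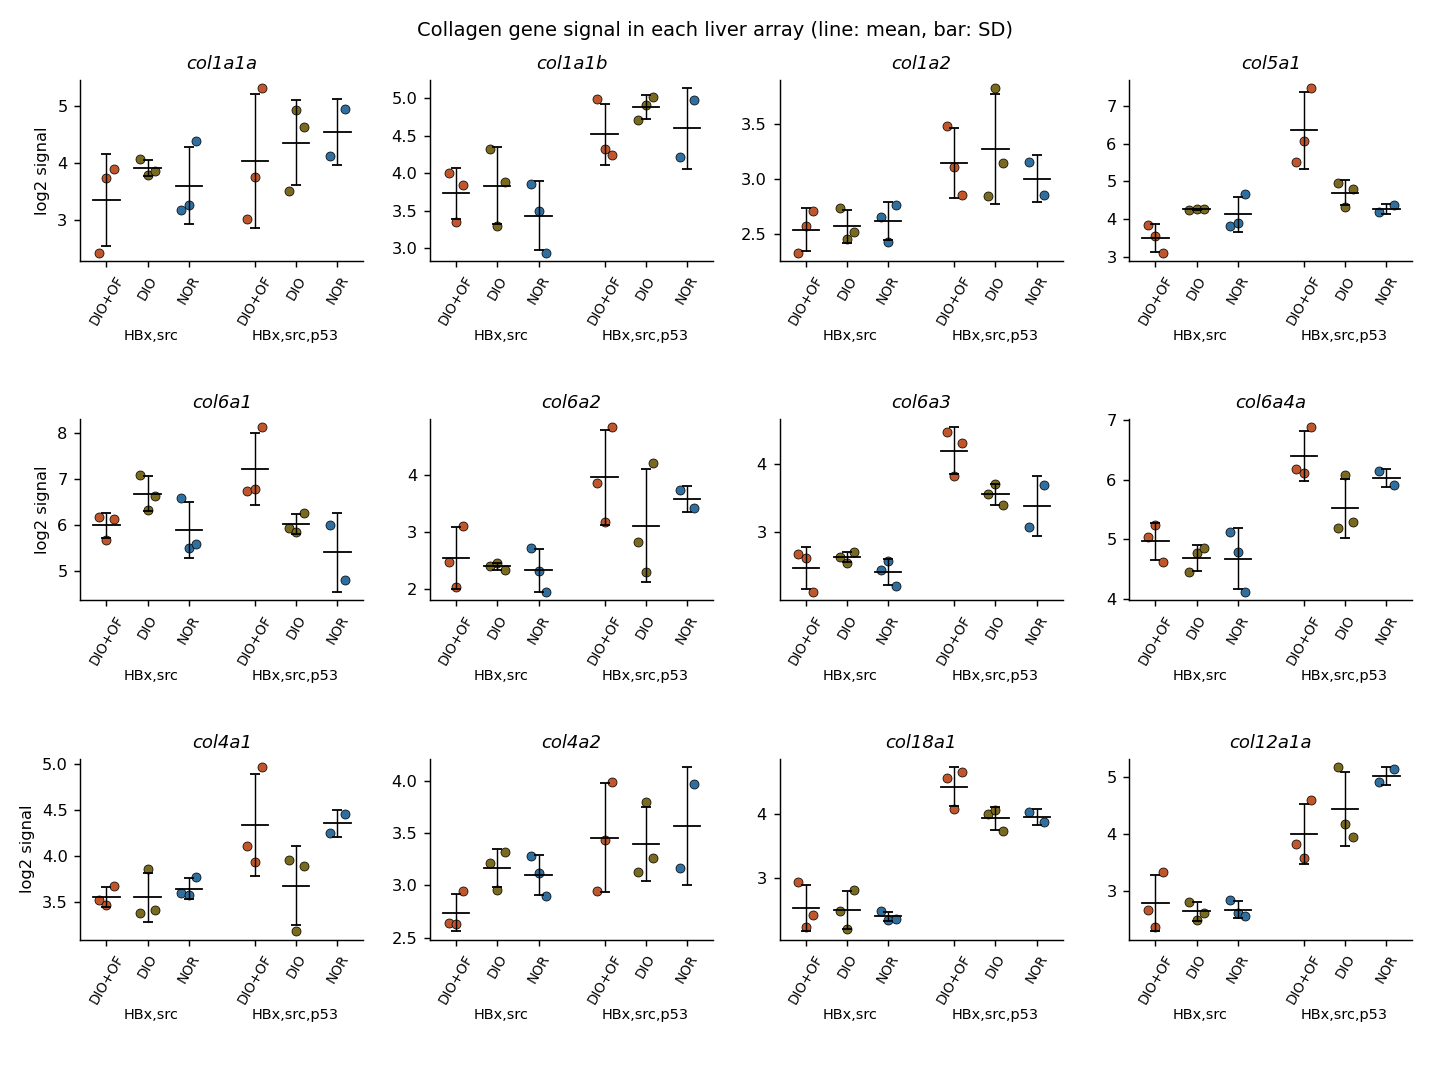
Log2 signal (y axis) on each array (points) of 12 collagen genes, in DIO+OF, DIO and NOR livers of HBx,src (left) and HBx,src,p53 (right), with the group mean (line) and SD (bar); each line is a batch of its own. The type I chains overlap between groups, while the 3 HBx,src,p53 DIO+OF arrays lie above the other arrays of the line for col5a1, col6a1, col6a3 and col18a1. For col18a1 the gap is between 4.080 and 4.074. How many of all genes separate in this way was not counted, so it cannot be read as particular to these collagens.

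Of the 6 type IV chains, which form the basement membrane network around vessels and ducts, none was called. The gene col4a1 read 4.11, 3.94 and 4.97 in HBx,src,p53 DIO+OF livers, 3.96, 3.18 and 3.89 in DIO livers and 4.25 and 4.46 in NOR livers. It gave 0.66 ± 0.27 for DIO+OF against DIO (SE, limma adjusted p 0.259) and -0.68 ± 0.30 for DIO against NOR (0.27), and without DIO+OF replicate 3 the value against DIO was 0.35 ± 0.24 (0.649). Its second probe set went the other way for DIO+OF against DIO, at -0.83 ± 0.35 (0.282), so the array gives no settled direction for col4a1. Its neighbour col4a2 gave 0.06 ± 0.28 for DIO+OF against DIO in HBx,src,p53 (0.956) and -0.43 ± 0.28 in HBx,src (0.635). The chains col4a3 to col4a6 lay between -0.15 and 0.00 in the first and between -0.34 and 0.21 in the second of these comparisons. Without DIO+OF replicate 3, col4a2 gave -0.21 ± 0.27 in the first (0.858).

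Type XVIII collagen is a basement membrane collagen that carries heparan sulfate chains and gives rise to the fragment endostatin. Its gene col18a1 read 4.57, 4.08 and 4.66 in HBx,src,p53 DIO+OF livers, 4.01, 4.07 and 3.74 in DIO livers and 4.04 and 3.88 in NOR livers. The DIO+OF arrays lay above the rest by as little as 0.01, and the change against DIO was 0.50 ± 0.22 (SE, limma adjusted p 0.311). In HBx,src it was 0.03 ± 0.22 (0.987). The paralog col18a1b gave -0.30 ± 0.25 in HBx,src,p53 (0.636) and was dim.

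A weaker threshold, limma's unadjusted p under 0.05, named a few further collagens, in each comparison a smaller share than of all genes. For DIO+OF against DIO it held for 8 collagens in HBx,src,p53 (14.8%, beside 19.3% of all genes): col4a1, col5a1, col6a1, col6a3, col6a4a and col18a1 higher, and col7a1 and col19a1 lower. Without DIO+OF replicate 3 it held for 3 (5.56%, beside 13.4%), col5a1, col6a3 and col9a1a. In HBx,src it held for 2, col10a1a and col23a1a (3.7%, beside 16%). For DIO against NOR it held for 2 in HBx,src, again col10a1a and col23a1a (3.7%, beside 7.56%), and for 4 in HBx,src,p53, col5a2b, col19a1, col4a1 and col28a2b (7.41%, beside 19.1%). With DIO+OF set against NOR it held for 0 in HBx,src (beside 10.5%) and for 4 in HBx,src,p53, col5a1, col6a1, col6a3 and col12a1a (7.41%, beside 22.1%). Without DIO+OF replicate 3 that count was 6 (11.1%, beside 19.4%), these with col9a1a and col15a1a.

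The study's methods set another threshold, a change of at least 2-fold with an unadjusted p under 0.05. It held for no collagen in the 3 comparisons of HBx,src, where it held for 7.65% (DIO+OF against DIO), 2.34% (DIO against NOR) and 4.48% (DIO+OF against NOR) of all genes. In HBx,src,p53 it held for col5a1 and col6a1 with DIO+OF against DIO (3.7%, beside 7.95%) and for none with DIO against NOR (beside 9.77%). With DIO+OF against NOR it held for col5a1, col6a1 and col12a1a (5.56%, beside 13.9%).

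The last of these, col12a1a, encodes a fibril-associated collagen that sits on the surface of type I fibrils. It read 3.83, 3.58 and 4.59 in HBx,src,p53 DIO+OF livers, 5.18, 4.18 and 3.95 in DIO livers and 4.92 and 5.14 in NOR livers. All 3 DIO+OF arrays lay below both NOR arrays, with a change of -1.03 ± 0.38 that was not called (SE, limma adjusted p 0.173). Without DIO+OF replicate 3 it was -1.32 ± 0.37 (0.0883). In HBx,src the same comparison gave 0.11 ± 0.34 (1).

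The 2 collagens named in HBx,src were both low in signal. The gene col10a1a, a short-chain collagen known from cartilage in mammals, read 2.05, 1.82 and 2.01 in DIO+OF livers, 1.65, 1.32 and 1.63 in DIO livers and 1.87, 1.94 and 1.97 in NOR livers. The DIO arrays lay below both other groups, with 0.43 ± 0.15 for DIO+OF against DIO and -0.39 ± 0.15 for DIO against NOR (SE, limma adjusted p 0.273 and 0.745). The transmembrane collagen col23a1a read 1.77, 1.82 and 2.26 in DIO+OF livers, 2.91, 2.88 and 2.17 in DIO livers and 2.11, 1.82 and 1.91 in NOR livers. The DIO arrays lay above the NOR arrays and overlapped the DIO+OF arrays. It gave -0.70 ± 0.29 for DIO+OF against DIO and 0.71 ± 0.29 for DIO against NOR (0.354 and 0.768). The DIO arrays are shared by the comparisons with DIO+OF and with NOR, and their opposite signs are not independent.

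Of the genes past the unadjusted threshold in HBx,src,p53, 4 more belong to other collagen types or chains. The gene col19a1, a fibril-associated type, read 2.17, 2.26 and 1.91 in DIO+OF livers, 2.76, 2.296 and 2.90 in DIO livers and 1.84 and 2.18 in NOR livers. Its DIO arrays lay above both other groups, with -0.54 ± 0.25 for DIO+OF against DIO and 0.64 ± 0.28 for DIO against NOR (SE, limma adjusted p 0.336 and 0.262). The gene col7a1, whose product forms the anchoring fibrils of skin in mammals, read 2.25, 2.26 and 1.94 in DIO+OF livers, 2.39, 2.58 and 2.88 in DIO livers and 2.301 and 2.48 in NOR livers. The DIO+OF arrays were the lowest of the line, at -0.47 ± 0.18 against DIO (0.244).

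The alpha 2 type V gene col5a2b read 3.24, 2.85 and 3.28 in DIO livers and 2.48 and 2.72 in NOR livers of HBx,src,p53. Its DIO arrays lay above the NOR arrays, by 0.52 ± 0.22 (SE, limma adjusted p 0.249). The type XXVIII gene col28a2b, from a family related to type VI by its von Willebrand factor A domains, read 1.85, 2.14 and 1.87 in DIO livers and 3.39 and 1.99 in NOR livers. These overlapped, with NOR replicate 1 far above NOR replicate 2. The change was -0.74 ± 0.32 (0.271), and it depended on the NOR array used: -0.04 ± 0.28 without NOR replicate 1 (0.986) and -1.43 ± 0.28 without NOR replicate 2 (0.0309).

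By class, the 15 fibrillar genes had a median of -0.13 for DIO+OF against DIO in HBx,src,p53, with 4 above 0, and of 0.27 for DIO against NOR, with 13 above 0, where the median over all genes was 0.04 and -0.01. The DIO arrays enter these comparisons with opposite signs. In HBx,src the fibrillar medians were -0.10 and 0.10. The 11 fibril-associated genes had medians of -0.13 and 0.09 in HBx,src,p53, the 4 short-chain network genes -0.35 and 0.23, the 4 transmembrane genes 0.10 and 0.07, and the 4 multiplexins -0.22 and 0.07. The HBx,src,p53 medians of these classes for DIO+OF against DIO include DIO+OF replicate 3 and were not recomputed without it. Without it the fibrillar genes col1a2, col5a3b and col11a1b gave 0.02, 0.17 and 0.02 against DIO. The fibril-associated gene col16a1 gave 0.05. On all arrays each of these genes was below 0, so the class medians depend in part on that array. Besides col5a1, col6a1 and col12a1a, no collagen of any class reached a 2-fold change with an unadjusted p under 0.05 in a within-line comparison.

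The difference of the OF change between the lines was also tested, as DIO+OF against DIO in HBx,src,p53 minus the same in HBx,src. No collagen was called, where 1.3% of all genes were called. The largest difference was that of col5a1, 2.43 ± 0.57 (95% interval 1.21 to 3.64, limma adjusted p 0.0681). The unadjusted threshold held for 4 collagens (7.41%, beside 18.2% of all genes): col5a1, col6a1 at 1.89 ± 0.58 (0.169), col23a1a at 0.89 ± 0.41 (0.385) and col6a3 at 0.79 ± 0.31 (0.292). For col5a1 the difference was called without DIO+OF replicate 1 of either line. For the difference of the diet change, no collagen was called (beside 0.0622% of all genes) and 0 passed the unadjusted threshold (beside 10.5%). A difference between the lines cannot be told apart from a response that differs between the batches. The interquartile range of all signals on an array also differed, at 1.80 to 2.03 in HBx,src and 2.89 to 3.34 in HBx,src,p53. Its part in these differences was not tested.

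Collagen chains are hydroxylated, glycosylated and folded in the endoplasmic reticulum, exported in large carriers, trimmed outside the cell and cross-linked by lysyl oxidases. Lists of such genes, of matrix partners, receptors and fibrogenic signals were examined beside the collagens. None of their measured members was called in HBx,src: 24 of synthesis and hydroxylation, 19 of processing and cross-linking, 19 collagen-binding proteoglycans and glycoproteins, 12 basement membrane partners, 25 of fibrogenic signalling and 14 receptors. The processing, basement membrane and fibrogenic lists had no called member in HBx,src,p53 either. Calls in the 3 other lists fell on 5 genes. The unadjusted threshold held in HBx,src for 7 of the 24 synthesis genes with DIO+OF against DIO, all higher (beside 16% of all genes). With DIO+OF against NOR it held there for 5 higher and 1 lower (beside 10.5%), and with DIO against NOR for 2, both lower (beside 7.56%).

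Of the synthesis genes, mia3, whose product TANGO1 loads procollagen into carriers leaving the endoplasmic reticulum, read 8.30, 8.42 and 8.39 in HBx,src,p53 DIO livers and 7.47 and 7.39 in NOR livers. It rose by 0.94 ± 0.23 with the diet (SE, limma adjusted p 0.0412), and was the only called one of 24 there (4.17%, beside 3% of all genes). Against NOR, HBx,src,p53 DIO+OF livers had 2 of 24 called, both lower (8.33%, beside 6.3% of all genes). The prolyl 4-hydroxylase subunit gene p4ha2 read 4.54, 5.22 and 5.10 in DIO+OF livers and 7.23 and 6.48 in NOR livers, -1.90 ± 0.48 (0.0432). The prolyl isomerase gene ppib, whose product cyclophilin B helps procollagen fold, read 11.42, 11.20 and 11.10 in DIO+OF livers and 12.19 and 12.27 in NOR livers, -0.99 ± 0.21 (0.0221). In HBx,src, p4ha2 was on the other side, at 2.06 ± 0.43 for DIO+OF against NOR (0.116). The calls of all 3 genes were lost without either NOR array of HBx,src,p53 (adjusted p 0.0902 to 0.287), and with 1 array left out in turn mia3 stayed called in 8, p4ha2 in 3 and ppib in 13 of 17 fits. Without DIO+OF replicate 3, p4ha2 and ppib had adjusted p 0.0794 and 0.0619.

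The largest called change in these lists was that of tgfbi, a secreted protein induced by TGF-beta that binds collagens and integrins. Its HBx,src,p53 values were 10.40, 9.80 and 10.32 in DIO+OF livers, 7.39, 5.56 and 6.67 in DIO livers and 8.35 and 6.27 in NOR livers. It rose by 3.63 ± 0.58 against DIO and 2.86 ± 0.65 against NOR (SE, limma adjusted p 0.00824 and 0.029). In both it was the only called one of 19 in its list (5.26%, beside 2.35% and 6.3% of all genes). The call against DIO held with each array left out in turn (adjusted p 0.00341 to 0.039), and that against NOR was lost without NOR replicate 2 (0.315) or without any of the 3 DIO+OF arrays of the line (0.0596 to 0.0723). In HBx,src, tgfbi read 9.12, 7.12 and 7.25 in DIO+OF livers and 9.56, 9.08 and 9.14 in DIO livers, which overlapped, -1.43 ± 0.58 (0.355).

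The beta 1 subunit itgb1a, which pairs with the collagen-binding alpha subunits of integrins, read 8.48, 8.27 and 8.68 in HBx,src,p53 DIO+OF livers, 6.33, 7.51 and 7.19 in DIO livers and 7.93 and 7.85 in NOR livers. It rose by 1.46 ± 0.30 against DIO (SE, limma adjusted p 0.0276) and was 0.59 ± 0.33 higher against NOR (0.457). Against DIO it was the only called one of 14 receptors (7.14%, beside 2.35% of all genes). The call against DIO was lost without DIO replicate 1 (0.069), DIO replicate 3 (0.0506), or any 1 of the DIO+OF arrays of the line (0.0558 to 0.109). In a fit of the HBx,src,p53 arrays alone neither tgfbi nor itgb1a was called against DIO (adjusted p 0.067 and 0.104).

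**Figure D3:**
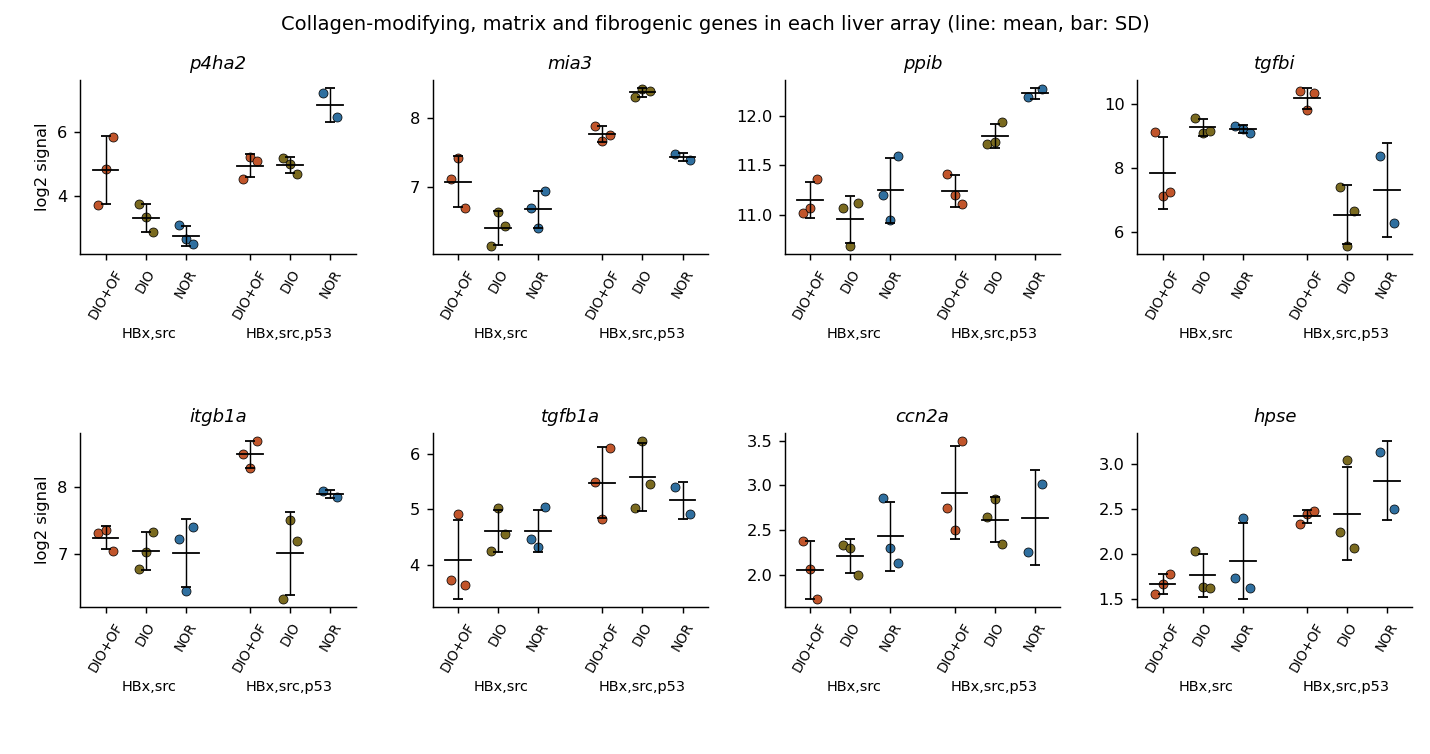
Log2 signal (y axis) on each array (points) of 5 called collagen-related genes and 3 fibrosis genes in DIO+OF, DIO and NOR livers of HBx,src (left) and HBx,src,p53 (right), with the group mean (line) and SD (bar). In HBx,src,p53, tgfbi at 9.80 to 10.40 and itgb1a at 8.27 to 8.68 lie above the other groups in DIO+OF livers, while tgfb1a, ccn2a and hpse overlap between DIO+OF and DIO livers.

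Genes of fibrogenic signalling showed no call in 25. The growth factor gene tgfb1a gave -0.52 ± 0.42 for DIO+OF against DIO in HBx,src and -0.10 ± 0.42 in HBx,src,p53 (SE, limma adjusted p 0.729 and 0.948). Connective tissue growth factor, ccn2a, gave -0.15 ± 0.29 and 0.30 ± 0.29 (0.916 and 0.709), and heparanase, hpse, -0.10 ± 0.27 and -0.03 ± 0.27 (0.948 and 0.978). Without DIO+OF replicate 3, ccn2a gave 0.01 ± 0.29, tgfb1a -0.42 ± 0.44 and hpse -0.06 ± 0.31 in HBx,src,p53 (0.996, 0.805 and 0.97). DIO against NOR gave -0.22 to 0.00 for these 3 genes in HBx,src and -0.37 to 0.42 in HBx,src,p53, with no call. The smallest p values of this list in HBx,src,p53 for DIO+OF against DIO belonged to the PDGF receptor gene pdgfrb at 0.63 ± 0.18 (0.109), the TGF-beta receptor gene tgfbr1a at 1.57 ± 0.52 (0.16) and the ligand gene pdgfbb at 0.60 ± 0.20 (0.169). Its median there was 0.30, beside 0.04 over all genes. In that line tgfbr1a read 6.87, 6.63 and 8.47 in DIO+OF livers, the highest from replicate 3, and 5.53, 6.25 and 5.46 in DIO livers.

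The cross-linking enzymes loxl1 and loxl2a were 1.47 ± 0.35 and 3.54 ± 0.85 higher for DIO+OF against DIO in HBx,src,p53 and just missed the threshold (SE, limma adjusted p 0.0554 and 0.057). There loxl1 read 6.42, 6.64 and 7.04 in DIO+OF livers and 4.91, 4.97 and 5.79 in DIO livers. The gene loxl2a read 6.61, 7.69 and 10.36 in DIO+OF livers and 4.59, 4.55 and 4.88 in DIO livers. Its highest value came from DIO+OF replicate 3, the array with the low vtg2. In HBx,src the lowest adjusted p of a synthesis gene was that of colgalt1b, which adds galactose to hydroxylysine, at 2.97 ± 0.63 for DIO+OF against DIO (0.0612). Among basement membrane partners the laminin gene lamc1 gave -1.84 ± 0.51 for DIO+OF against NOR in HBx,src,p53 (0.0648) and the nidogen gene nid1a 0.57 ± 0.18 against DIO (0.136).

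Whole livers hold several cell types, and in such samples fewer cells of a type and less RNA per cell cannot be told apart. The 8 measured endothelial markers had array medians of 5.36, 5.77 and 6.07 in HBx,src,p53 DIO+OF livers, 4.27, 5.39 and 3.95 in DIO livers and 4.06 and 4.59 in NOR livers. Their summed linear signals were 593 to 793 in DIO+OF livers, 318 to 389 in DIO livers and 337 to 423 in NOR livers. In HBx,src their summed signals were 242 to 342 with DIO+OF, 307 to 465 with DIO and 314 to 389 with NOR. Of the 8, 2 were called higher in HBx,src,p53 for DIO+OF against DIO, kdrl by 1.32 and cdh5 by 1.37 (25%, beside 2.35% of all genes), and 1 against NOR, kdrl by 0.90 (12.5%, beside 6.3%), a call that held in 4 of 17 fits with an array left out. The DIO+OF sums lay above the others of the line. The sums of hepatocyte, leukocyte, adipocyte and bone and cartilage markers did so too, but a sum is carried by its brightest members. For DIO+OF against DIO in this line the median log2 fold change was 1.00 for endothelial markers. It was 0.43 for hepatocyte, 0.56 for leukocyte, -0.003 for adipocyte and 0.006 for bone and cartilage markers. The part of these markers in the collagen values was not tested.

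The 13 stellate cell and fibroblast markers had array medians of 3.66, 3.11 and 3.86 in HBx,src,p53 DIO+OF livers, 3.03, 3.32 and 3.23 in DIO livers and 3.53 and 3.41 in NOR livers, which overlapped. Their summed linear signals were 230 to 381 in DIO+OF livers, 184 to 276 in DIO livers and 201 to 213 in NOR livers, and 1 of 13 was called against DIO, rgs5a by 1.43 (7.69%, beside 2.35%). Hepatocyte summed signals were 53114 to 80765 in DIO+OF livers, 44598 to 52275 in DIO livers and 46590 to 48726 in NOR livers of that line, and those of leukocytes were 1176 to 1881 with DIO+OF, 638 to 959 with DIO and 679 to 1035 with NOR. In DIO+OF replicate 3 the median of the red blood cell markers was 7.45, above the 3.67 to 6.07 of the other 7 arrays of the line. Exocrine pancreas markers had medians of 6.56 to 10.93 in DIO+OF livers, 8.19 to 10.23 in DIO livers and 7.79 to 8.82 in NOR livers. Of the 9 bone and cartilage markers 1, sp7, was called higher against DIO (2.22) and against NOR (2.95). That is 11.1%, beside 2.35% and 6.3% of all genes. Of the 8 adipocyte markers 1, pparg, was called higher against DIO (1.61) and against NOR (1.11), 12.5% beside the same shares. Summed signals of the bone and cartilage markers were 193 to 275 with DIO+OF, 73 to 116 with DIO and 130 to 135 with NOR. Those of the adipocyte markers were 621 to 787 with DIO+OF, 258 to 373 with DIO and 409 to 548 with NOR. The 10 ovary markers had medians of 1.95 to 2.46 in DIO+OF livers, 2.79 to 3.31 in DIO livers and 2.25 to 2.26 in NOR livers of that line. Of these, 2 were called lower against DIO, the egg coat gene zp2.5 at -3.04 ± 0.65 and the oocyte growth factor gene gdf9 at -0.83 ± 0.19 (SE, limma adjusted p 0.0345 and 0.0496; 20%, beside 2.35%), and zp2.5 was called higher for DIO against NOR, at 3.08 ± 0.73 (0.0394; 10%, beside 3%). The hepatocyte marker ttr was called for DIO+OF against DIO (0.98) and DIO against NOR (-0.92). That is 1 of 12 markers each time (8.33%, beside 2.35% and 3% of all genes). The intestine marker fabp2 was called for DIO against NOR (-2.79), 1 of 5 (20%, beside 3%). The part of any of these in the collagen values was not tested.

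**Figure D4:**
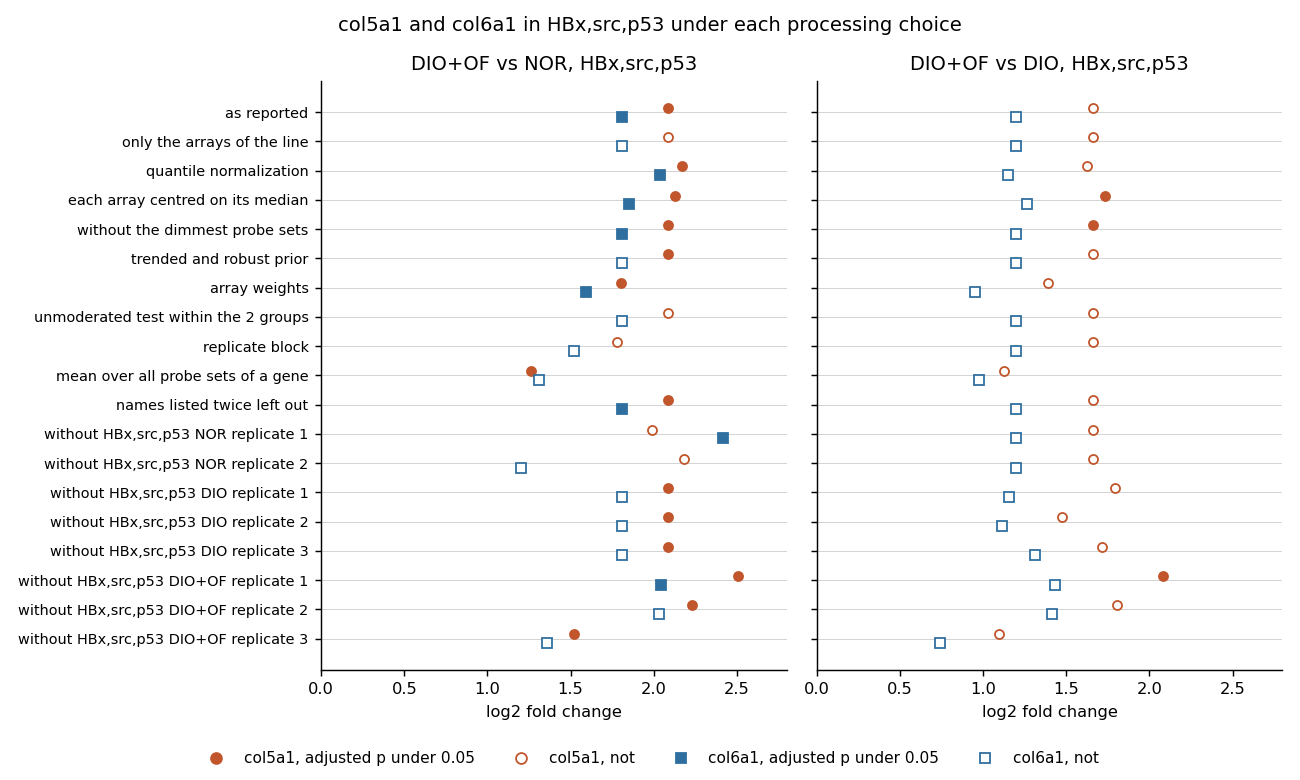
Log2 fold change (x axis) of col5a1 (circles) and col6a1 (squares) for DIO+OF against NOR (left) and DIO+OF against DIO (right) in HBx,src,p53 under each processing choice and with each array of the line left out (y axis); filled symbols have a limma adjusted p under 0.05. All values lie above 0, between 0.74 and 2.51, and filled symbols are mostly those of col5a1 against NOR.

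With every processing choice tried, col5a1 stayed higher in HBx,src,p53 DIO+OF livers, by 1.26 to 2.51 against NOR and 1.095 to 2.08 against DIO, and was called in 22 of 27 alternatives against NOR and in 3 of 27 against DIO. The change of col6a1 against NOR lay between 1.20 and 2.42 and was called in 9 of 27.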

How the data were processed

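The table deposited by the authors holds log2 signals of 75212 probe sets on 17 ZebGene arrays, a scale taken from the range of the values. Transcriptome Analysis Console is named in the submitters' processing notes. Its version, the build, the summarisation and the normalization are not given in the sources. The platform annotation paired 30358 probe sets with 1 symbol (20908 genes), 1015 with several and left 43839 unlisted; a name repeated in another letter case counted as 1, and 2 probe sets with a collagen name beside another symbol were not used. The 54 collagens had 108 probe sets, and 28 had more than 1; for 45 the gene identifier was found in RefSeq, whose build may differ from the array's, with 0 changed symbols.

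A linear model with a mean for each group was fitted to the 17 arrays together, using limma 3.58.1 under R 4.3.3 (moderated variances, 11 residual and 2.67 prior df) and Benjamini-Hochberg adjustment over all probe sets. No test was run over lists. The fit was tested on simulated data. Named were called collagens, those at the methods' threshold, the type I, IV, VI and XVIII chains, and the called or lowest-p genes of each related list; other collagens and the settings of related genes were picked with their values in view. The members and lists were chosen with earlier results of these data known. Figures used Python 3.11.15 and matplotlib 3.10.9.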

Additional observations from a re-analysis of the deposited data

How the results depend on the processing

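The alternatives were a fit to 1 line at a time, quantile normalization, each array centred on its median, leaving out the dimmest 40% of probe sets, a trended and robust prior, array weights, an unmoderated test, a replicate block, the mean over all probe sets of a gene, leaving out each array in turn, and, added after seeing the data, leaving out names listed in 2 letter cases. No collagen was called in HBx,src under any of them. For DIO+OF against NOR in HBx,src,p53 the count of called collagens was 0 in place of 2 with the fit to 1 line and with the unmoderated test, 1 (col5a1) with the trended and robust prior and with the mean over all probe sets, and 0 to 2 with an array left out: col6a1 was lost without HBx,src NOR replicates 2 or 3, any DIO array of either line or DIO+OF replicates 2 or 3 of either line (adjusted p 0.0512 to 0.119) and without HBx,src,p53 NOR replicate 2 (0.407). For DIO+OF against DIO there it was 1 (col5a1) in place of 0 with arrays centred (adjusted p 0.049) and without the dimmest probe sets (0.0438), and 0 to 1 with an array left out, 1 without DIO+OF replicate 1 (0.0209). For DIO against NOR there it was 0 to 1, 1 without NOR replicate 2 (col28a2b), and for the difference of the OF change between lines 0 to 1 (col5a1). Replicate numbers are shared by the groups, and the titles do not say whether they mark pairs. The deviations of same-numbered arrays correlated at -0.08 to 0.10, which with 2 or 3 arrays a group cannot settle whether arrays were paired. With the replicate block the count for DIO+OF against NOR in HBx,src,p53 was 0, and the other counts did not change. There col5a1 gave 1.78 (limma adjusted p 0.081) and col6a1 1.52 (0.0619). At the threshold of the methods, the count for DIO+OF against DIO in HBx,src,p53 was 1 in place of 2 with array weights and with the mean over all probe sets, 0 with the unmoderated test and 1 to 4 with an array left out. Against NOR it was 0 in place of 3 with the unmoderated test, and for DIO against NOR it was 0 to 1 in either line with an array left out. In HBx,src, DIO+OF against NOR gave 1 (col7a1) without the names in 2 letter cases. The medians of the 54 collagens moved by less than 0.13, the SD of array medians within groups, under every alternative that changes them. The causes of these changes were not tested. Without 1 of its NOR arrays, the other NOR array of HBx,src,p53 is assumed to vary like the other groups. With 2 or 3 arrays a group, and 12 of 54 collagens near the floor, changes of the dim genes cannot be read as absent. The same holds for other collagens of low signal, as 17 of the 54 had a mean of 3 or more.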
